A study of Mus musculus with 12 samples.

Results

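The Notch pathway was examined through 10 genes: the receptors Notch1, Notch2 and Notch4, the ligands Dll4, Jag1 and Jag2, and the nuclear effectors Rbpj, Hes1, Hey1 and Heyl. Every array probe that the platform annotation assigns to one of these symbols was taken, which gave 15 of 45281 probes. Of the 10 genes, 7 had a probe that passed the detection filter (detection p under 0.05 on at least 6 of 12 arrays) and were tested among 8905 genes. Notch2, Dll4 and Rbpj did not pass it and are described by their raw signal.

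The RNA came from cardiac myocytes of C57BL/6 mice aged 12 to 16 weeks, isolated from the heart by collagenase perfusion and plated on laminin in a medium with albumin, penicillin and BDM, an inhibitor of contraction. In 6 samples the medium held recombinant connective tissue growth factor (CTGF, or CCN2, a secreted matricellular protein) at 200 nmol/L for 48 h, and 6 control samples were cultured for the same time without it. The labels do not say whether the samples came from separate hearts or preparations, so the p-values cover the spread among the 12 samples, and some of it may be technical. Biotin-labelled RNA was hybridised to single-colour Illumina bead arrays, on which 14747 to 16390 probes per array were detected.

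Notch receptors are single-pass membrane proteins that are activated by Delta-like and Jagged ligands on a neighbouring cell. Ligand binding exposes the receptor to an ADAM protease and then to gamma-secretase, and the released intracellular domain enters the nucleus, binds the DNA-binding protein RBPJ together with a Mastermind coactivator, and switches on genes such as those of the HES and HEY repressors. In the heart the pathway is best known for the development of valves, trabeculae and coronary vessels. Notch1, Notch4, Dll4, Jag1 and Hey1 are well known from vascular endothelium and Notch3 from the mural cells of vessels.

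With CTGF the receptor genes Notch1 and Notch4 and the effector gene Hey1 were lower, to 0.37, 0.50 and 0.41 times the control level. The effector gene Hes1 did not pass the test. Jag1, Jag2 and Heyl were close to the detection limit and did not pass it either. Thus 3 of the 7 tested genes were called lower and none higher by limma at a Benjamini-Hochberg adjusted p under 0.05, where 21.6% of all tested genes were called lower and 25.0% higher, or 46.6% in either direction. For the same 3 genes the 6 CTGF and 6 control arrays did not overlap, as for 12.1% of all tested genes in the lower direction and 13.0% in the higher. The median log2 fold change of the 7 tested genes was -0.36, beside 0.034 for all tested genes. It was -0.17 without background correction, beside 0.023 for all genes, and -0.99 over the 3 of them that were detected on all 12 arrays.

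**Figure D1:**
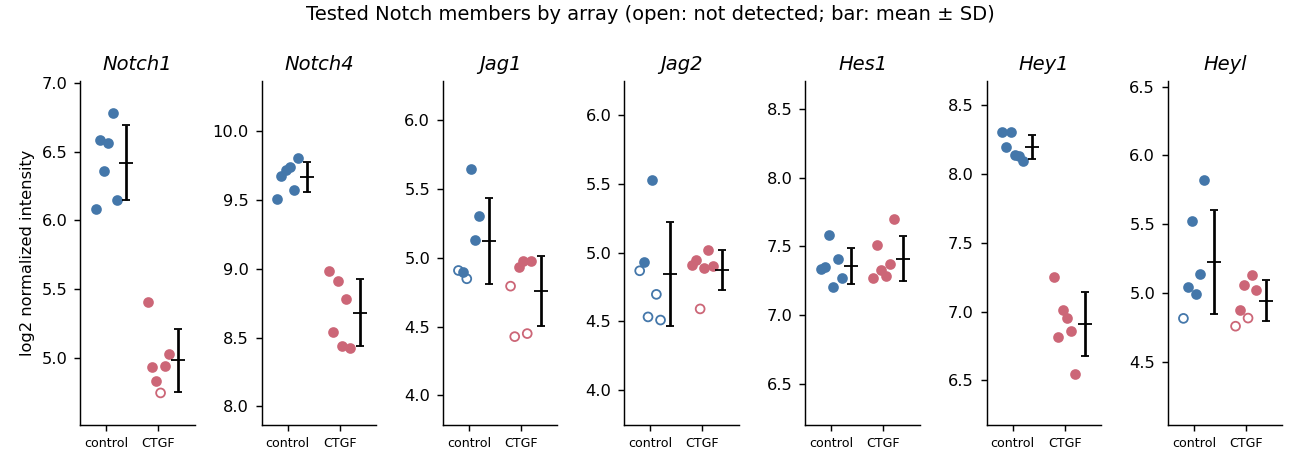
Normalized log2 intensity (vertical axis, each panel spanning the same height) of the 7 tested Notch genes on the 6 control and 6 CTGF arrays. Filled points were detected at p under 0.05, open points were not, and the bar gives mean ± SD. The groups do not overlap for Notch1, Notch4 and Hey1 and overlap for Jag1, Jag2, Hes1 and Heyl.

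Among the receptors, Notch1 is the broadly used family member that is required in the endothelium of the developing heart. Its log2 intensity (probe ILMN_1241915) had a lowest, median and highest value of 6.08, 6.46 and 6.78 on the control arrays and of 4.75, 4.94 and 5.41 on the CTGF arrays. Every CTGF array was below every control array, and 1 of the 6 CTGF arrays was below the detection limit. The group means were 4.98 ± 0.23 with CTGF and 6.42 ± 0.27 in controls (SD, n = 6 each), a log2 fold change of -1.44 ± 0.13 (SE, limma adjusted p = 5.43e-07). Of all tested genes 1.59% had a lower log2 fold change. The size depended on the background step. With the background left in it was -0.72, as it also was with the values the authors had normalized, and the call was kept.

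Notch4 is a receptor expressed mainly in endothelium. Its detected probe (ILMN_1220697) gave log2 intensities from 9.51 to 9.81 on the control arrays, with a median of 9.70, and from 8.43 to 8.98 on the CTGF arrays, with a median of 8.66. The groups were separate, and all 12 arrays were above the detection limit. The means were 8.68 ± 0.24 with CTGF and 9.67 ± 0.11 in controls (SD, n = 6 each), a log2 fold change of -0.99 ± 0.11 (SE, limma adjusted p = 2.81e-06). Without normalization between arrays the change was -0.57, where the median of all genes moved to 0.35, and it was -0.59 with median scaling. A further Notch4 probe (ILMN_1256134) was detected on none of the 12 arrays, with median raw intensities of 67.6 with CTGF and 76.4 in controls, so it gives no second measurement of the gene.

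Notch2, a receptor of many tissues including vascular smooth muscle, had 2 probes. The first (ILMN_2678002) was detected on 2 of 6 control arrays and 1 of 6 CTGF arrays, with median raw intensities of 78.0 and 76.1. The second was detected on none of them. No difference of Notch2 was detectable at this signal.

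The promoters of these receptors and of the ligands were read from RefSeq (GRCm38.p6, 250 bases before to 50 bases after the gene start), since Rbpj and the HES and HEY proteins act on DNA. Of the 10 genes, 7 had a promoter in the table, and Hes1, Hey1 and Heyl did not. The letters GTGGGAA and GTGAGAA, to which RBPJ binds, and CACGTG and CACGCG, to which HES and HEY proteins bind, were searched on both strands without overlap between the matches reported here. Shown are Notch1 and Notch4, the receptors that fell, and Jag1, the promoter with the most matches, each 5′ to 3′ on the gene's strand with matches in capitals.
Notch1 promoter, chr2:26503773-26504072, minus strand: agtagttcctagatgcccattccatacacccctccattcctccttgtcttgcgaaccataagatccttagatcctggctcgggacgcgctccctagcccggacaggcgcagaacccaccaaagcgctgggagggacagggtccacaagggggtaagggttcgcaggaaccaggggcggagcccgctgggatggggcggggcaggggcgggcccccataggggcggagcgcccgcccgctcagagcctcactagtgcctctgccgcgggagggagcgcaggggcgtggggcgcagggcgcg
Notch4 promoter, chr17:34564045-34564344, plus strand: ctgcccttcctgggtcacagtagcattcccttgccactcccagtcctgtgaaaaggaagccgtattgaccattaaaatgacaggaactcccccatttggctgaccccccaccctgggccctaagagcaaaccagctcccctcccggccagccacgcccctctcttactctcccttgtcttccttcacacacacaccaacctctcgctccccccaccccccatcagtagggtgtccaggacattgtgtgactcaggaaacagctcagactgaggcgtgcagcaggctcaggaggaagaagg
Jag1 promoter, chr2:137116471-137116770, minus strand: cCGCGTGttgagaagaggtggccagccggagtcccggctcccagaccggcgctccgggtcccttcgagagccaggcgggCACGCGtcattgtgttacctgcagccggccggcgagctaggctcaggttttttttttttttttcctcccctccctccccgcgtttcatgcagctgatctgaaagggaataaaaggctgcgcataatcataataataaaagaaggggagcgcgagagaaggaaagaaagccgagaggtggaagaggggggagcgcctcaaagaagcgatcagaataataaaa
The Notch1 and Notch4 windows held none of the 4 motifs. The Jag1 window held CACGCG on both strands, starting 249 and 171 bases before the gene start, and Notch2, Dll4 and Jag2 held it once each. No window of the 7 genes, the 2 of Rbpj included, held an RBPJ motif. Among 32851 promoters of the same length 10.6% held either RBPJ motif and 15.4% either HES and HEY motif. CACGCG, the only motif found in the windows of the 7 genes, was held by 9.27%. These matches describe letters in a short window and say nothing of binding.

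Of the ligands, Jag1 encodes Jagged 1, which in vessels acts between endothelium and mural cells. Its log2 intensity had a lowest, median and highest value of 4.85, 5.02 and 5.64 on the control arrays and of 4.43, 4.86 and 4.98 on the CTGF arrays. The groups overlapped, and the probe was detected on 4 of 6 control arrays and 3 of 6 CTGF arrays. The groups differed by -0.36 ± 0.15 on the log2 scale (SE, limma adjusted p = 0.0552), just short of the threshold. It was not called at -0.17 without background correction (adjusted p = 0.0703). It passed with normexp on each array's own signal (adjusted p = 0.0479), under cyclic loess (0.0352), with array weights (0.0326) and without CTGF replicate 4 or 6 or control replicate 1, 2 or 3 (0.0387 to 0.0468). Over all alternatives its log2 fold change stayed between -0.42 and -0.17.

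Jag2, a second Jagged ligand, gave log2 intensities of 4.51 to 5.53 on the control arrays, with a median of 4.78, and of 4.59 to 5.02 on the CTGF arrays, with a median of 4.90. The CTGF values lay inside the control range. It was detected on 2 of 6 control arrays and 5 of 6 CTGF arrays, and the groups differed by 0.031 ± 0.15 on the log2 scale (SE, limma adjusted p = 0.883), with a 95% interval from -0.28 to 0.35. Its direction was not settled, since it turned to -0.031 without control replicate 3, to -0.036 without control replicate 6 and to -0.019 with array weights.

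Dll4, the Delta-like ligand of sprouting endothelial tip cells, had 2 probes and neither passed the filter. Probe ILMN_1250828 was detected on 3 of 6 control arrays and on no CTGF array, with a lowest, median and highest raw intensity of 70.8, 81.1 and 93.4 in controls and of 63.0, 73.2 and 79.5 with CTGF. The highest CTGF array lay within the control range. Probe ILMN_1249195 was detected on none of the 12 arrays. No fold is given for Dll4, because the gene was not above background on any CTGF array and on only part of the control arrays.

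**Figure D2:**
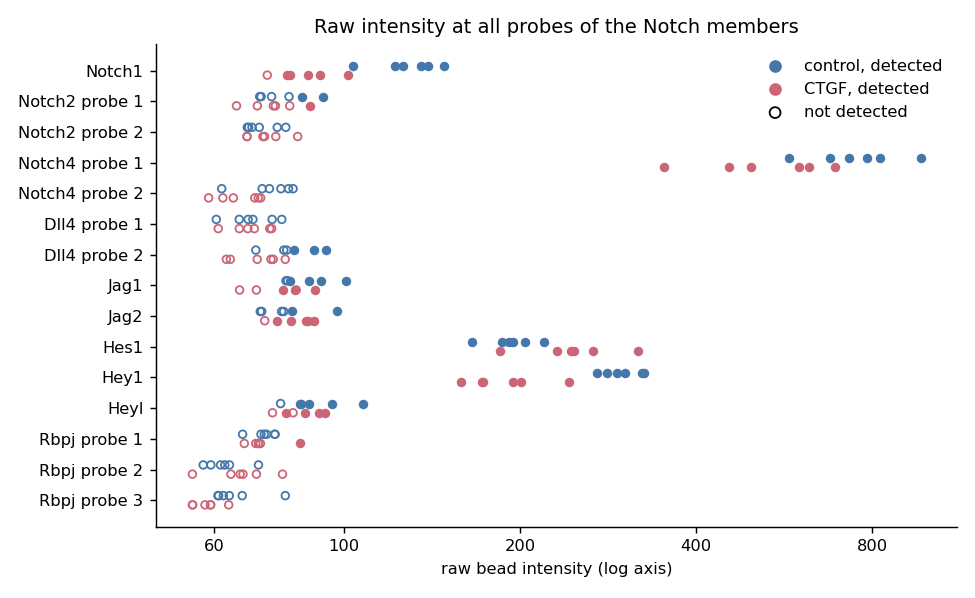
Raw bead intensity (horizontal log axis) at all 15 probes of the 10 Notch genes, control arrays above and CTGF arrays below for each probe, open points not detected at p under 0.05. The Hes1 and Hey1 probes and 1 of the 2 Notch4 probes stand clear of the undetected signals on all 12 arrays, as the Notch1 probe does on the control arrays. The Notch1 values of 3 of the 6 CTGF arrays lie among them, as do many values of the remaining genes.

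Among the nuclear effectors, Rbpj encodes the DNA-binding protein on which canonical Notch signals converge. It had 3 probes, of which ILMN_2588315 was detected on 1 CTGF array and on no control array and the other 2 on none. Its median raw intensity at that probe was 71.5 with CTGF and 73.5 in controls. No difference of Rbpj was detectable at this signal.

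Hey1 encodes a basic helix-loop-helix repressor of endothelial cells and atrial myocytes and is a direct Notch target. Its log2 intensity (ILMN_2690596) had a lowest, median and highest value of 8.10, 8.17 and 8.31 on the control arrays and of 6.55, 6.91 and 7.25 on the CTGF arrays. The groups were separate, with all 12 arrays above the detection limit. The means were 6.91 ± 0.23 with CTGF and 8.20 ± 0.09 in controls (SD, n = 6 each), a log2 fold change of -1.29 ± 0.10 (SE, limma adjusted p = 1.01e-07), the smallest adjusted p among the 7 tested genes. Of all tested genes 2.16% had a lower log2 fold change. It was -0.86 without normalization between arrays and -1.36 without CTGF replicate 1, and lay between these values under all other alternatives.

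Hes1 encodes a related repressor that Notch induces in many cell types and that other signals also induce. Its log2 intensity (ILMN_1247691) had a lowest, median and highest value of 7.20, 7.34 and 7.58 on the control arrays and of 7.27, 7.35 and 7.70 on the CTGF arrays. The groups overlapped almost fully. The means were 7.41 ± 0.17 with CTGF and 7.36 ± 0.13 in controls (SD, n = 6 each), and they differed by 0.052 ± 0.092 on the log2 scale (SE, limma adjusted p = 0.676), with a 95% interval from -0.14 to 0.25. This value depended on the scaling. It was 0.46 without normalization between arrays (limma adjusted p = 0.0101) and 0.44 under median scaling (0.0132), where the median of all genes was 0.35 and 0.32, and it was -0.023 under cyclic loess and -0.0059 without CTGF replicate 6.

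The changes of Hey1 and Hes1 were compared within arrays, a comparison chosen after their values were seen. The log2 difference Hey1 minus Hes1 was -0.50 ± 0.39 with CTGF and 0.84 ± 0.10 in controls (SD, n = 6 each). It ranged from -1.15 to -0.018 on the CTGF arrays and from 0.72 to 0.97 on the control arrays, without overlap. The groups differed by -1.34, which is given as a description with no test. It lay between -1.33 and -1.04 under the 6 other choices of background and scaling. Of these, a scaling factor of a whole array cancels within the difference.

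Heyl encodes the third HEY family protein, known from vascular smooth muscle. Its log2 intensity had a lowest, median and highest value of 4.81, 5.09 and 5.82 on the control arrays and of 4.76, 4.95 and 5.13 on the CTGF arrays. The groups overlapped, with detection on 5 of 6 control arrays and 4 of 6 CTGF arrays. The groups differed by -0.28 ± 0.15 on the log2 scale (SE, limma adjusted p = 0.134), and it passed the threshold without control replicate 1 (-0.36, adjusted p = 0.0497). It was -0.16 without control replicate 6 (adjusted p = 0.287), -0.12 without background correction, -0.16 without normalization between arrays and -0.18 with median scaling. Without control replicate 1 Jag1 passed as well, so that 5 of the 7 tested genes were called lower.

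The genes with the profile most like that of Hey1 over the 12 arrays, each centred on its own mean, were Tnfsfm13, Mustn1 and Csrp1. Their root-mean-square difference from Hey1 was 0.12, 0.12 and 0.13 on the log2 scale. Their log2 fold changes were -1.23 ± 0.09, -1.38 ± 0.11 and -1.20 ± 0.07 (SE). Values near that of Hey1 follow from this choice, since the profiles were matched over the arrays of both groups. Csrp1 encodes a LIM domain protein of smooth muscle and other cells.

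The remaining pathway genes were taken from a list of 61, of which 38 were tested. With CTGF 14 of them (of all tested genes 21.6%) were lower, 6 (25.0%) higher and 18 did not pass the test. The median log2 fold change of the 38 was -0.061 beside 0.034 for all genes. The 14 include Dlk1, which passed the detection filter through the control arrays alone. The counts of each pathway and marker list below are to be read beside the same shares of all tested genes. When arrays were not scaled to each other 8 were lower and 17 higher, beside 701 and 4404 of all genes, and with median scaling 8 and 15, beside 751 and 4218.

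All 4 tested receptors and ligands of this list fell, but Dlk1 passed the detection filter through the control arrays alone. A gene admitted in this way could hardly be called higher, so its lower call gives no support of its own. Egfl7, a secreted endothelial protein that binds Notch receptors, changed by -1.80 ± 0.09 on the log2 scale (SE), with -1.75 at a further probe. Notch3, the receptor of mural cells, changed by -1.26 ± 0.15, from 6.26 ± 0.23 in controls (SD, n = 6), and was detected on 3 of 6 CTGF arrays. Dll1, a Delta-like ligand, changed by -0.71 ± 0.11. Dlk1, an atypical ligand, was not above background on any CTGF array, with group means of 4.66 with CTGF and 5.29 in controls. Under the reported processing the group means put Dlk1 at least 1.37-fold lower. This bound leaves out the spread of the control arrays (SD 0.15) and does not hold for values without background correction. For this bound the CTGF level was taken, on each array, as the higher of the gene's own signal and the dimmest detected probe. Notch3 moved to -0.62, Dll1 to -0.31 and Dlk1 to -0.27 on values without background correction, with the calls kept.

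The fringe gene Mfng, whose product adds sugars to Notch receptors and alters their choice of ligand, had the largest change of all tested genes on the Notch lists. It went from 8.56 ± 0.27 in controls to 6.33 ± 0.11 with CTGF (SD, n = 6 each), a log2 fold change of -2.24 ± 0.11 (SE, limma adjusted p = 9.99e-10). Poglut1, which adds glucose to the receptor, was the other tested gene of the glycosylation list and changed by -0.50 ± 0.10, a call lost when arrays were not scaled (-0.085) and with median scaling (-0.11).

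Of 7 tested genes for receptor cleavage 2 fell, 1 rose and 4 did not pass the test. Furin, the protease that cuts the receptor on its way to the surface, rose by 0.58 ± 0.09 on the log2 scale (SE), with 0.45 at a further probe and 0.91 without normalization between arrays. Aph1a, a gamma-secretase subunit, changed by -0.50 ± 0.10 and Adam17, an ADAM protease, by -0.30 ± 0.08, but further probes gave -0.018 and -0.028. Without normalization between arrays the Aph1a call was lost (-0.079) and Adam17 turned to 0.10.

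Of 8 tested genes for ligand endocytosis and receptor degradation 2 rose and 6 did not pass the test. Mib1, the ubiquitin ligase that ligand-bearing cells need for signalling, rose by 0.43 ± 0.08 on the log2 scale (SE), and by 0.26 without background correction and 0.78 without normalization between arrays. Dtx2, a Deltex ubiquitin ligase, rose by 0.37 ± 0.10, with 0.52 and 0.35 at further probes and 0.80 without normalization between arrays.

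Of 12 tested nuclear cofactors 3 fell, 2 rose and 7 did not pass the test. Maml2, a Mastermind coactivator, changed by -0.96 ± 0.10 on the log2 scale (SE), and by -0.59 without background correction and -0.61 without normalization between arrays. The corepressor genes Tle1 and Tle4 changed by -0.67 ± 0.12 and -0.63 ± 0.10, and 1 of 2 further Tle1 probes and neither of 2 further Tle4 probes passed the test over all detected probes, where 19.7% were called lower and 23.8% higher. Without normalization between arrays the Tle1 and Tle4 calls were lost, at -0.23 and -0.18. Ep300, a histone acetyltransferase of the Notch transcription complex, rose by 0.54 ± 0.14 and by 0.98 without normalization between arrays, as did the acetyltransferase gene Kat2b by 0.52.

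Of 5 tested further targets 3 fell, 1 rose and 1 did not pass the test. Nrarp, a direct Notch target whose product limits Notch signalling, went from 6.86 ± 0.21 in controls to 5.69 ± 0.15 with CTGF (SD, n = 6 each). This was a change of -1.17 ± 0.11 (SE, limma adjusted p = 4.44e-07), and the groups did not overlap. It was -0.69 without background correction. Ccnd1, the cyclin D1 gene that many growth signals induce, changed by -1.11 ± 0.10, with -1.12 and -0.96 at further probes and -0.68 without normalization between arrays. Hes6, a HES family gene that opposes Hes1, changed by -0.32 ± 0.10, but 2 further probes gave 0.24 and 0.18 and the value turned to 0.076 without normalization between arrays. Myc, a growth regulator induced by Notch in T cells and by many other signals elsewhere, rose by 0.58 ± 0.15, and by 0.29 without background correction.

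**Figure D3:**
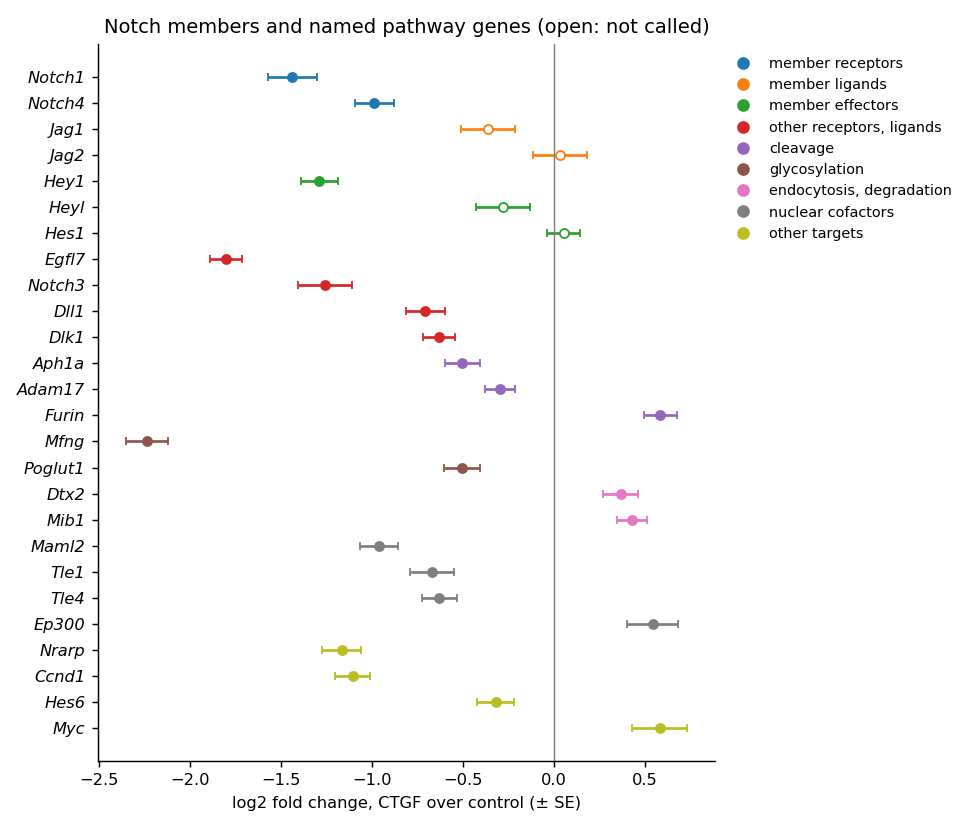
Log2 fold change (CTGF over control, horizontal axis, ± SE) of the 7 tested Notch genes and of the named genes of the other pathway lists, coloured by role. Open points did not pass the test. Mfng at -2.24 and Egfl7 at -1.80 lie furthest to the left, and Furin and Myc at 0.58 furthest to the right.

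Cell type markers were read on the same arrays. Of 8 myocyte markers 7 were tested and all were detected on every control array. Their mean log2 intensity per array was 12.86 to 13.285 with CTGF and 13.35 to 13.46 in controls, without overlap. The brightest, Myl2, Actc1 and Myh6, were at -0.060 ± 0.070, -0.31 ± 0.081 and -0.24 ± 0.10 on the log2 scale (SE), but further probes of Actc1 and Myh6 were called lower at -0.88 and -0.78. Of the 7, Actc1, Tnni3 (-0.89) and Pln (-0.75) were called lower, 3 in all. Of 14 endothelial markers 12 were tested and all 12 fell, Egfl7 of the list above among them. Their median change was -1.66 on the log2 scale, with mean intensities per array of 6.98 to 7.36 with CTGF and 8.60 to 8.90 in controls. Esam and Emcn, endothelial surface proteins, changed by -1.77 ± 0.09 and -1.59 ± 0.09. Kdr and Erg were not tested. In RNA from a whole culture, fewer cells of a type and less RNA per cell cannot be told apart.

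Of 7 tested mural markers 6 fell and 1, Cspg4, rose (0.84 ± 0.13 on the log2 scale, SE), with means per array of 6.95 to 7.27 with CTGF and 7.76 to 7.81 in controls. Acta2, Mcam and Abcc9 changed by -0.71 ± 0.08, -1.72 ± 0.10 and -0.46 ± 0.09 on the log2 scale (SE). Of 5 tested fibroblast markers Pdgfra and Tcf21 fell and 3 did not pass the test. Tcf21 was detected on 2 of 6 CTGF arrays. The median log2 fold change of the 5 was -0.13, with means per array of 7.29 to 7.54 with CTGF and 7.94 to 8.21 in controls. Dcn and Lum were at -0.13 ± 0.15 and 0.14 ± 0.10, and Pdgfra changed by -2.35 ± 0.10. Of the further probes, a Dcn probe was called higher at 0.42. Another Dcn probe at -0.20 and a Lum probe at -0.26 were not called. The macrophage markers were at 4.79 to 5.09 with CTGF and 4.83 to 5.57 in controls on average per array. Of the 3 tested Lyz2 fell (-1.07 ± 0.12) and was detected on 2 of 6 CTGF arrays. Csf1r and Cd14 were at 0.14 ± 0.17 and 0.18 ± 0.16 and were detected on 3 and 2 of 6 control arrays. The part of these cell types in the changes of the Notch genes was not tested.

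Each tested Notch gene was set against the mean of the 12 endothelial markers within arrays, as a description. Relative to that mean Notch1 changed by 0.15 and Hey1 by 0.29 on the log2 scale, and for both the CTGF and control arrays overlapped in this difference. These values hold for the reported processing. Without background correction the log2 fold change of Notch1 was -0.72, beside a median of -1.41 for the endothelial markers. Notch4 changed by 0.59 relative to the endothelial mean, and its groups did not overlap, so it fell less than the marker mean on these arrays. The log2 fold changes of the 12 markers ranged from -2.63 to -0.71, and that of Notch4, -0.99, lay within this range. Hes1 changed by 1.63, Jag2 by 1.61, Heyl by 1.30 and Jag1 by 1.22 relative to it. Jag1, Jag2 and Heyl were close to background in both groups, and Notch1 was close to it on part of the CTGF arrays.

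**Figure D4:**
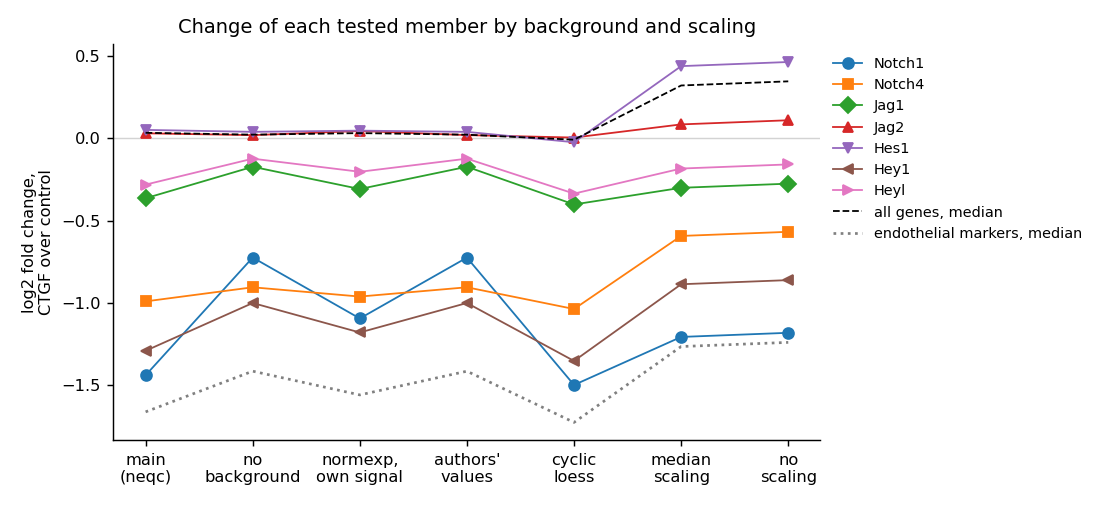
Log2 fold change (CTGF over control, vertical axis) of each tested Notch gene under the reported processing and 6 other choices of background and scaling, with the median of all genes (dashed) and of the endothelial markers (dotted). Notch1, Notch4 and Hey1 stay below 0 under every choice shown, and Hes1 rises with the median of all genes under median scaling and without scaling, to 0.44 and 0.46.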

How the data were processed

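Per the labels' protocols, biotinylated cRNA from 6 CTGF and 6 control samples was read on Illumina bead arrays of 1 colour. The authors deposited average bead intensity per probe on a linear scale without normalization and a detection p-value beside it, per the file headers. Another table deposited by the authors holds linear intensity values with nearly the same distribution on every array and was used as an alternative. Neither scanner software nor slides are stated. The descriptions number all CTGF samples before the controls, so a batch that goes with the treatment cannot be told apart from it.

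Intensities were background-corrected from the detection p-values with an offset of 16, quantile normalized and put on the log2 scale (neqc, limma 3.58.1, R 4.3.3). Probes with 1 gene symbol and detection p under 0.05 on at least 6 arrays were kept, each gene by its brightest probe, giving 8905 genes. Groups came from the sample titles and were tested against each other by lmFit and eBayes (two-sided), p-values were adjusted by Benjamini-Hochberg over the 8905 genes, and the threshold was 0.05. The offset shrinks changes of dim genes, precision is limited by having 6 arrays a group, and the standard error had a median of 0.11. Named genes were all 10 Notch genes, up to 4 called genes with the largest change of each pathway list, Notch3, the 3 brightest genes of each marker list and the 3 genes most like Hey1. Tnni3, Pln, Cspg4, Tcf21, Kat2b, Kdr and Erg are named beside counts after their values were seen. The genes and lists were chosen with earlier results of these data known. The fit was tested on simulated intensities. Alternatives covered background, scaling, the authors' normalized values, detection filter, probe summary, spread, the replicate number as a block, and each array left out.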

Additional observations from a re-analysis of the deposited data

Results flagged for a closer look

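One group of values stood apart in the tested Notch genes. On CTGF replicate 3 the log2 intensity of Jag2 was 4.59, while the nearest other CTGF array was at 4.89, a gap of 0.701 of the range of the 6 arrays that passes Dixon's criterion for 6 values. The probe was not detected on that array. Of 14 groups of 6 arrays tested, 1 was set apart in this way, and chance does so in about 1 of 20.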

How the results depend on the processing

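Notch1, Notch4 and Hey1 stayed called lower under every alternative that gave them a value (25, 26 and 26 of them), and the count of 3 genes called lower ranged from 3 to 5 when arrays were left out one at a time. It was 5 without control replicate 1, where Jag1 and Heyl passed. The scaling moved the other counts. Of all genes 2229 were higher and 1924 lower with CTGF, against 4404 and 701 with no normalization between arrays and 4218 and 751 with median scaling, which puts the share of higher calls at 53.7%, 86.3% and 84.9%. In the same order, 0, 1 and 1 of the Notch genes were called higher, the 1 being Hes1, and the other pathway genes had 6, 17 and 15 higher and 14, 8 and 8 lower. The cause was not tested. Values without a call turned sign for Hes1 under cyclic loess (-0.023) and without CTGF replicate 6 (-0.0059), and for Jag2 with array weights (-0.019) and without control replicate 3 (-0.031) or 6 (-0.036). Leaving out arrays one at a time gave Jag2 a range of -0.036 to 0.17. Adam17 turned to 0.10 and 0.077 and Hes6 to 0.076 and 0.051 with no normalization and with median scaling, and Hes6 to 0.032 with the mean of its probes. Same-numbered samples of the groups did not deviate together (correlations -0.047 to 0.026), and no label pairs them. Such correlations cannot show that the samples were unpaired. With the replicate number as a block Jag1 was called (log2 fold change -0.36, adjusted p = 0.0274), and Notch1, Notch4 and Hey1 kept their calls. The filter of detection on all 12 arrays left 3 of the 7 Notch genes, with 2 called lower. The comparison of Hey1 with Hes1 was added after the data were seen. Signal over background limits what can be said of Notch2, Dll4, Rbpj, Jag1, Jag2 and Heyl, and of the size of the Notch1 change.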
